A study of Mus musculus with 18 samples.

Results

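Mature myelin genes are the genes whose products build and hold together the multilayered membrane that oligodendrocytes, the myelin-forming glia of the brain, wrap around axons. 9 of them were followed here by their annotated symbols: Mbp, Mobp, Cnp, Cldn11, Tspan2, Mag, Mog, Opalin and Ugt8a. They are 9 of the 18194 genes named on the arrays and are represented by 26 of the 45101 probe sets, 8 for Mbp, 5 for Mobp, 3 each for Cnp and Tspan2, 2 each for Ugt8a and Opalin, and 1 each for Mag, Mog and Cldn11. All 9 genes were bright enough to be tested, against 11741 genes in all, and 25 of the 26 probe sets were, the exception being the second probe set of Opalin.

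The study examined midbrain, striatum and frontal cortex of male C57BL/6J mice aged 14 weeks on Affymetrix arrays, which measure RNA by hybridization to short probes. MPTP is a toxin that injures dopaminergic neurons and is used to model Parkinson's disease. Animals received 30 mg/kg MPTP by intraperitoneal injection once daily for 5 days, or saline, and tissue was taken 4 days after the last injection. The 6 groups were therefore MPTP midbrain, saline midbrain, MPTP striatum, saline striatum, MPTP frontal cortex and saline frontal cortex, each with 3 arrays (18 in all), and MPTP and saline animals were of the same strain, sex and age. All values are log2 expression values as normalized by the authors with RMA, so a difference of 1 is a doubling, and differences are given as MPTP minus saline, or as the first region named minus the second.

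Region markers were checked against the tissue labels. All 4 frontal cortex markers and all 5 striatum markers were called higher in their own region than in both others in saline animals, and so were 4 of the 5 midbrain markers (Th, Slc6a3, Slc18a2 and Ddc). The exception was Nr4a2, which averaged 8.17 in saline midbrain, 8.91 in saline striatum and 8.26 in saline frontal cortex, and was called lower in midbrain than in striatum (-0.74). The 5 striatum markers averaged 10.83 to 10.93 on the MPTP and 10.78 to 10.90 on the saline striatal arrays, and 5.52 to 6.19 on the other 12. Of the genes of dopaminergic neurons, Th differed by -0.82 (SE 0.29, adjusted p = 0.133 by limma) in MPTP midbrain, Slc6a3 by -0.37 (adjusted p = 0.208) and Slc18a2 by -0.23 (adjusted p = 0.594), so none of the 3 passed the test (Th and Slc6a3 had an unadjusted p under 0.05). Arrays of 1 group correlated at 0.991 to 0.997 with each other. Single arrays were still shifted as a whole. On saline midbrain replicate 2, 13.6% of all tested genes lay above their group mean, against 76.0% on replicate 1. On saline frontal cortex replicate 2 the share was 21.5%. These low arrays had the smallest interquartile ranges (3.37 and 3.38, against up to 3.65), and on each 1 of the 9 myelin genes lay above its group mean. In whole tissue, fewer cells of a type and less RNA per cell cannot be told apart.

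Myelin consists of compact layers, in which the cytoplasmic and the outer membrane faces are held tightly together, and of non-compact channels that stay open to the oligodendrocyte's cell body. Mbp (myelin basic protein) zips the cytoplasmic faces together, and Mobp is a small basic protein of the same compact layers. Cnp, a cyclic nucleotide phosphodiesterase, belongs to the non-compact channels. Cldn11 forms the tight junctions between myelin turns, and Tspan2 is a tetraspanin membrane protein of oligodendrocytes. Mag sits on the membrane next to the axon and also inhibits the growth of nerve processes, Mog lies on the outermost surface of the sheath, and Opalin is a glycoprotein of the oligodendrocyte membrane. Ugt8a is the enzyme that makes galactosylceramide, the characteristic lipid of myelin. Such genes are known to be expressed most in regions rich in fibre tracts. On build GRCm38.p6, Cldn11, Ugt8a and Tspan2 lie on chromosome 3, Mag on 7, Mobp on 9, Cnp on 11, Mog on 17, Mbp on 18 and Opalin on 19.

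Promoters were read for the genes whose values moved most and for those that moved least or the other way, so that the sequences can be set beside the results. Promoter sequences were read for 8 of the 9 genes (11 promoters, build GRCm38.p6, each 250 bases before to 50 bases after the start), and not for Mbp. Capitals mark 3 motifs searched on both strands, namely ACAAAG (the core bound by SOX factors, CTTTGT on the other strand), CAGCTG (an E-box of the kind bound by OLIG2) and CTGGNAC (the motif of MYRF, GTNCCAG on the other strand). The motif TATAAA was searched as well. No matches overlap in the sequences shown.
Cldn11 (chr3:31149670-31149969, plus strand): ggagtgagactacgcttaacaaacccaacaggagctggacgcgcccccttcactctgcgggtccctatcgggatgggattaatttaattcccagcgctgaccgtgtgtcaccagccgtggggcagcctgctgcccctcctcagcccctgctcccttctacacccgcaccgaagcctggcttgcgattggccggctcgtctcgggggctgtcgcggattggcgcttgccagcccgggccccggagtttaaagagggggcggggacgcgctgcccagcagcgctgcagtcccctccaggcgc
Ugt8a (chr3:125938603-125938902, minus strand): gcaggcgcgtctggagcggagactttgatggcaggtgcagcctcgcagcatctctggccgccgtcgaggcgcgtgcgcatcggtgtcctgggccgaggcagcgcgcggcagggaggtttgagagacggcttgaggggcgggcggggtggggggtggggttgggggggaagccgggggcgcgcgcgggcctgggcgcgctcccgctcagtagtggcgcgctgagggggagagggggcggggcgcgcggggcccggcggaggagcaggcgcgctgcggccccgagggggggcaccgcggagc
Mobp (chr9:120149492-120149791, plus strand): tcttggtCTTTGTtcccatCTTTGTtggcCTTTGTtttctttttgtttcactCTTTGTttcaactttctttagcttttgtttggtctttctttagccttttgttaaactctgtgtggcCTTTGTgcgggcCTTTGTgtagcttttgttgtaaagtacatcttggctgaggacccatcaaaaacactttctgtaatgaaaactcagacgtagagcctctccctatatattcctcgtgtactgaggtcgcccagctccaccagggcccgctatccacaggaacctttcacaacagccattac
Opalin (chr19:41077064-41077363, minus strand): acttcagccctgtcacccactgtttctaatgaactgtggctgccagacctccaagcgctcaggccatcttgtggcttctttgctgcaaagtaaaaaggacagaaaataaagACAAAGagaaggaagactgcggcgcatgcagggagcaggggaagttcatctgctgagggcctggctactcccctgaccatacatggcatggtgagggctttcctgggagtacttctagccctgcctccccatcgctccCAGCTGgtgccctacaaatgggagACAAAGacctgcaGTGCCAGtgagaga
The windows of Cldn11 and Ugt8a, with GC contents of 66.3% and 78.3%, held none of the 4 motifs. That of Mobp (GC 43.3%) held 6 matches to ACAAAG, all of them as CTTTGT upstream of the start. That of Opalin (GC 54.3%) held 2 matches to ACAAAG, 1 to CAGCTG and 1 to CTGGNAC. Of the 11 promoters of the 8 genes, 6 held ACAAAG (18.7% of all 32851 mouse promoters did), 5 held CTGGNAC (19.3%), 1 held CAGCTG (16.3%) and none held TATAAA (13.6%). Mag has 3 of the 11 and Tspan2 has 2, and of the 3 of Mag a pair shares most of its bases. These matches describe the letters only.

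The first question was how the myelin genes differ between regions in animals that received saline. All 9 were highest in midbrain, intermediate in striatum and lowest in frontal cortex, with no overlap between the 3 saline arrays of any pair of regions. Saline midbrain exceeded saline cortex by 0.65 (Mbp) to 2.31 (Mog), with a median of 1.86, and all 9 genes passed the test, against 27.8% of the tested genes that were higher in this comparison and a median over all genes of 0.02. Saline striatum exceeded saline cortex by 0.47 (Mbp) to 1.65 (Mobp), with a median of 1.34 and again 9 of 9 called, against 20.5% of all genes called higher. Saline midbrain exceeded saline striatum by 0.18 (Mbp) to 0.88 (Mog), with a median of 0.58 and 9 of 9 called, against 33.4% of all genes. All values in one group lay above all in the other for 28% of all genes in the first comparison, 27.3% in the second and 33.5% in the third. Calls are adjusted p-values under 0.05 from limma, adjusted over the 11741 tested genes.

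On the probe sets used, Mog (2.31, SE 0.10) and Ugt8a (2.29, SE 0.10) had like steps between saline midbrain and saline cortex, and the second set of Ugt8a gave 2.43 and another set of Mobp 2.36. The Mog values were 9.22, 9.05 and 9.16 in saline midbrain, 8.21, 8.34 and 8.23 in saline striatum, and 6.67, 6.78 and 7.06 in saline frontal cortex. The midbrain mean was thus 4.95-fold the cortical mean (difference 2.31, SE 0.10, adjusted p = 5.47e-15 by limma). Ugt8a had 10.05, 9.83 and 10.18 in saline midbrain, 9.12, 9.16 and 9.20 in saline striatum, and 7.72, 7.56 and 7.90 in saline cortex. Its midbrain level was 4.90-fold and its striatal level 2.71-fold that of cortex. Mag and Mobp also stood more than 4 times higher in saline midbrain than in saline cortex, at 4.51-fold and 4.18-fold, Tspan2, Cldn11 and Opalin between 3.48-fold and 3.64-fold, Cnp at 2.63-fold and Mbp at 1.57-fold. The Mbp figure is that of its brightest probe set. Over its 8 sets the difference ran from -0.94 (1425264_s_at) to 1.59 (1451961_a_at). Between saline midbrain and saline striatum Cnp differed by 0.28 (SE 0.08) and Mobp by 0.42 (SE 0.11). The call of Mbp in that pair, 0.18 (SE 0.06, adjusted p = 0.0177), was lost without saline striatum replicate 1 or saline midbrain replicate 1, and so 8 of 9 were called without either. As the mean over its 8 probe sets the difference was 0.02 (adjusted p = 0.816).

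**Figure D1:**
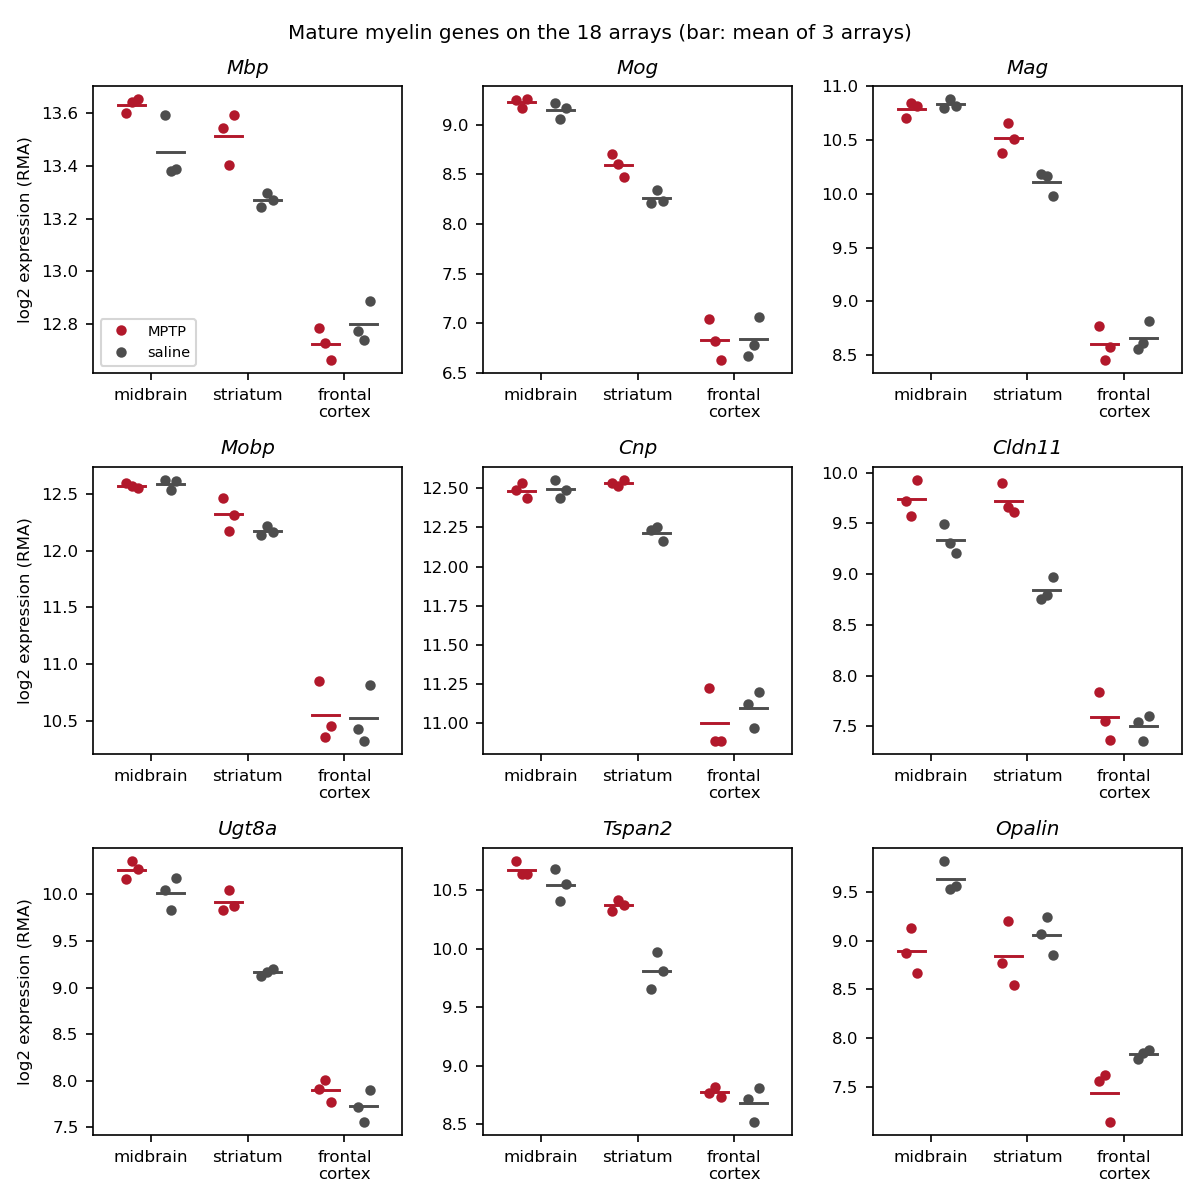
Log2 expression (RMA, vertical axes, each with its own range) of the 9 mature myelin genes in midbrain, striatum and frontal cortex, with 3 MPTP arrays in red and 3 saline arrays in grey per region and a bar at each mean. In saline animals every gene is highest in midbrain and lowest in cortex, and for 7 of the 9 genes all MPTP striatal points lie above all saline striatal points.

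The second question was what MPTP changed, region by region. In striatum, 6 of the 9 myelin genes rose and none fell, against 1.29% of all tested genes that rose, 0.809% that fell and 2.1% that changed in either direction. The median difference over the 9 genes was 0.33, against -0.03 over all tested genes. Cldn11, Ugt8a and Tspan2 rose most, by 0.88, 0.76 and 0.56, Mag, Cnp and Mbp by 0.41, 0.32 and 0.24, and Mog, Mobp and Opalin did not pass the test. For 7 genes, those 6 and Mog, all MPTP values lay above all saline values (8.46% of all genes), and for none did all lie below (14.7% of all genes).

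Among the junction and membrane proteins, Cldn11 had 9.90, 9.67 and 9.61 in MPTP striatum, against 8.76, 8.79 and 8.97 in saline striatum. The lowest MPTP array lay 0.64 above the highest saline array, and the means differed by 0.88 (SE 0.12, adjusted p = 0.000101 by limma), a 1.85-fold increase. Tspan2 had 10.33, 10.42 and 10.38 in MPTP striatum, against 9.65, 9.97 and 9.81 in saline striatum. The MPTP arrays were tightly grouped and all higher (difference 0.56, SE 0.09, adjusted p = 0.000928), a 1.48-fold increase. The other 2 probe sets of Tspan2 gave 0.56 (adjusted p = 0.0076 over all probe sets) and 0.46 (adjusted p = 0.0169), also called.

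The lipid enzyme gene Ugt8a had 9.84, 10.05 and 9.88 in MPTP striatum, against 9.12, 9.16 and 9.20 in saline striatum. All MPTP arrays stood well above the narrow saline range, 1.69-fold higher in the mean (difference 0.76, SE 0.10, adjusted p = 6.32e-05). Its second probe set rose by 0.53 (SE 0.13, adjusted p = 0.0389 over all probe sets). By p, Ugt8a ranked 8, Cldn11 10 and Tspan2 13 among the 11741 genes in this comparison. Cldn11, Ugt8a and Tspan2 kept their striatal call in each of the 16 alternative settings, those that left out 1 striatal array included.

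Of the axon-facing and surface glycoproteins, Mag had 10.38, 10.66 and 10.51 in MPTP striatum, against 10.19, 10.16 and 9.98 in saline striatum. The groups did not overlap, with a difference of 0.41 (SE 0.09, adjusted p = 0.0175), a 1.33-fold increase. Mog had 8.71, 8.61 and 8.47 in MPTP striatum, against 8.21, 8.34 and 8.23 in saline striatum. Its groups did not overlap either, but the difference of 0.33 (SE 0.10) missed the threshold at an adjusted p = 0.101. Opalin had 8.77, 9.20 and 8.54 in MPTP striatum, against 9.07, 9.24 and 8.86 in saline striatum. It was the only 1 of the 9 genes with a negative striatal difference, -0.22 (95% interval -0.52 to 0.08, adjusted p = 0.483), and its groups overlapped.

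Of the compact and non-compact myelin proteins, Cnp had 12.53, 12.51 and 12.55 in MPTP striatum, against 12.24, 12.25 and 12.16 in saline striatum. The ranges of both groups were narrow and apart (difference 0.32, SE 0.08, adjusted p = 0.0271), a 1.25-fold increase. Mbp had 13.54, 13.40 and 13.59 in MPTP striatum, against 13.24, 13.30 and 13.27 in saline striatum. All 3 MPTP arrays were higher, by 1.18-fold in the mean (difference 0.24, SE 0.06, adjusted p = 0.0479). Over the 8 probe sets of Mbp the difference ran from -0.01 to 0.27, and only the set used here was called. Mobp had 12.46, 12.18 and 12.32 in MPTP striatum, against 12.13, 12.21 and 12.17 in saline striatum. These overlapped, and the difference of 0.15 (95% interval -0.08 to 0.37) did not pass (adjusted p = 0.531), while the 4 other probe sets of Mobp gave 0.20 to 0.37, none called. Over all 25 tested probe sets, 23 had a positive and 2 a negative striatal difference, and 10 were called higher and none lower (45.1% of all tested probe sets were positive, 1.42% were called higher and 0.538% lower), from Cldn11, Ugt8a, Tspan2, Mag, Cnp and Mbp.

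The smaller striatal calls were close enough to the threshold to be lost when certain single arrays were left out. Mbp and Cnp were not called without saline replicate 1, 2 or 3 or without MPTP replicate 1 or 3, and Mag was not called without saline replicate 3 or MPTP replicate 2. That left 3 called genes without saline striatum replicate 3 and 4 without MPTP striatum replicate 1. Normalizing the quantiles a second time lowered the difference of Mbp to 0.11 (adjusted p = 0.306) and that of Cnp to 0.22 (adjusted p = 0.15).

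**Figure D2:**
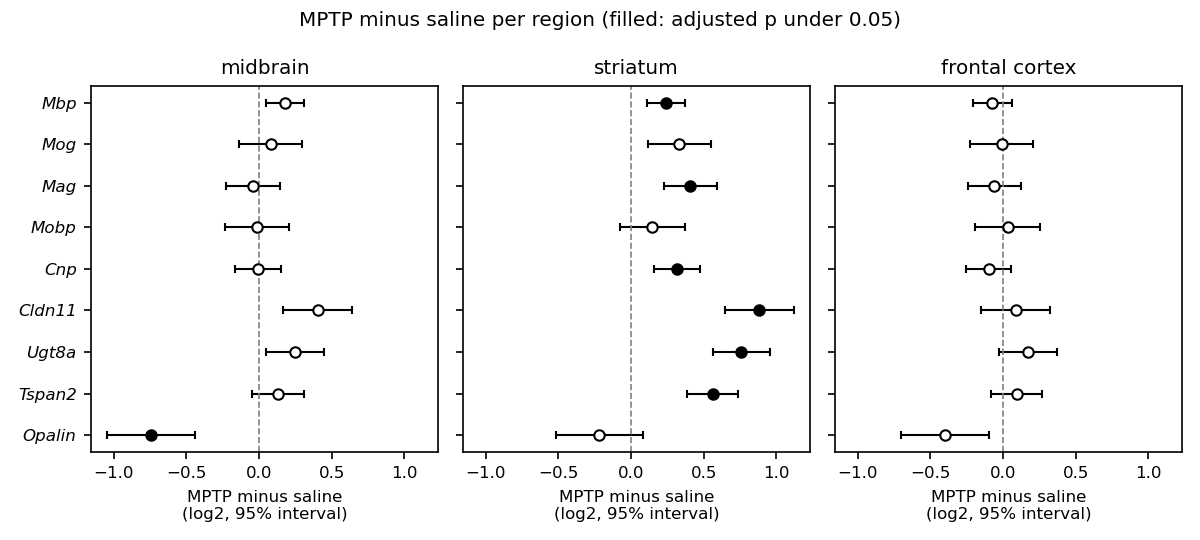
MPTP minus saline difference (horizontal axes, log2, point with 95% interval from limma, 3 arrays per group) of each mature myelin gene in midbrain, striatum and frontal cortex, with filled points for adjusted p under 0.05. The 6 filled striatal points lie between 0.24 and 0.88, the filled midbrain point is Opalin at -0.74, and no cortical point is filled.

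Markers of other tissue and cell types were read on the same striatal arrays. The 4 markers of frontal cortex neurons on the array averaged 4.35, 5.64 and 5.93 in MPTP striatum (replicates 1 to 3), against 5.70, 5.81 and 6.41 in saline striatum. None of the 4 was called (3 had an unadjusted p under 0.05), with differences of -1.22 for Slc17a7 (adjusted p = 0.215), -0.63 for Neurod6, -0.55 for Neurod2 and -0.26 for Tbr1. Their summed level on the linear scale was 110.4 to 413.9 in MPTP striatum, against 337.6 to 598.0 in saline striatum, and 2 of the 4 in MPTP striatum and 1 in saline striatum lay below the filter value on every array. The 9 myelin genes averaged 10.72, 10.74 and 10.65 on the same MPTP arrays, against 10.29, 10.38 and 10.29 on the saline arrays. MPTP replicate 1 was the lowest array for the cortical markers, and MPTP replicate 2 was the highest for the myelin genes. When 1 striatal array was left out, 3 to 5 of the 9 were called, depending on the array.

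Of all tested genes 1.29% rose in MPTP striatum and 0.809% fell. Astrocyte markers rose in 4 of 10 genes there, Gfap by 1.17, Gjb6 by 0.73, Gja1 by 0.51 and Aqp4 by 0.35. The summed linear level of the astrocyte markers was 15337 to 18488 in MPTP striatum, against 13975 to 14651 in saline striatum. Microglia markers rose in 6 of 10 genes, with summed levels of 5032 to 6328 in MPTP striatum, against 4231 to 4462 in saline striatum. Endothelial markers rose in 2 of 8 tested genes (summed over the 9 on the array, 1449 to 1847 in MPTP striatum, against 1345 to 1544 in saline striatum). Of 9 neuron markers none rose and Syn1 fell by 0.33. No astrocyte, microglia or neuron marker lay below the filter value on all arrays of either striatal group, and 1 of the 9 endothelial markers on the array did in both. The part of the cortical, astrocyte and microglia markers in the myelin result was not tested.

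**Figure D3:**
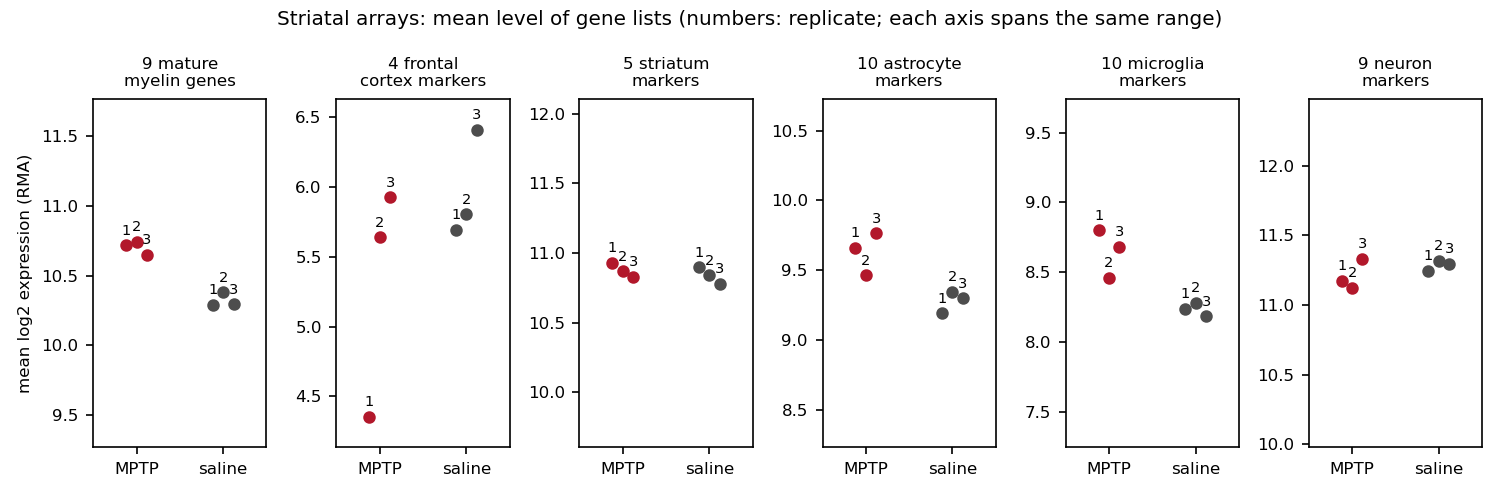
Mean log2 expression (RMA, vertical axes spanning equal ranges) of the 9 mature myelin genes and of 5 marker lists on the 6 striatal arrays, MPTP in red and saline in grey, with replicate numbers beside the points. The myelin genes lie at 10.65 to 10.74 in MPTP and 10.29 to 10.38 in saline striatum, and the cortical markers are lowest in MPTP replicate 1, at 4.35.

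In midbrain, 1 of the 9 genes changed, a fall of Opalin, against 0.383% of all genes that fell, 2.15% that rose and 2.54% that changed either way. Opalin had 8.87, 9.13 and 8.67 in MPTP midbrain, against 9.82, 9.53 and 9.56 in saline midbrain. All MPTP values lay below all saline values (5.17% of all genes), and the level was 1.68-fold lower (difference -0.74, SE 0.15, adjusted p = 0.0103 by limma). Without MPTP midbrain replicate 3 the difference was -0.63 (adjusted p = 0.107). Averaged with its second probe set, which read 2.95 to 3.82 on all 18 arrays and so lay below the filter value of 5.18, Opalin differed by -0.36 (adjusted p = 0.138).

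The other midbrain differences ran from -0.04 for Mag to 0.40 for Cldn11, and none passed the test. Cldn11 had 9.72, 9.57 and 9.93 in MPTP midbrain, against 9.50, 9.31 and 9.20 in saline midbrain. Its groups did not overlap (all MPTP values higher in 11.1% of all genes), and the difference of 0.40 (SE 0.12) stood at an adjusted p = 0.0608. It was called over all probe sets (adjusted p = 0.0495) and without saline midbrain replicate 1 or MPTP midbrain replicate 2, at 0.48 and 0.49. Mbp had 13.60, 13.64 and 13.65 in MPTP midbrain, against 13.59, 13.38 and 13.39 in saline midbrain. It differed by 0.18 (SE 0.06, adjusted p = 0.142), and by 0.25 and called without saline midbrain replicate 1, when 3 of the 9 genes were called. Ugt8a differed by 0.25 (adjusted p = 0.17), Tspan2 by 0.13 and Mog by 0.08, while Mag, Mobp and Cnp lay within 0.05 of no difference. The median over the 9 genes was 0.08, against 0.03 over all tested genes. Of all tested genes 2.15% rose in MPTP midbrain. Astrocyte markers rose in 2 of 10 genes there (summed linear level 20655 to 21330, against 17176 to 19962 in saline midbrain). Microglia markers rose in 1 of 10 (3421 to 4275, against 2872 to 3263). The part of both marker lists in the midbrain values was not tested.

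In frontal cortex none of the 9 genes was called by limma, against 0.0681% of all genes (0.0511% higher and 0.017% lower), and 1 of them (Opalin) had an unadjusted p under 0.05. Opalin had 7.56, 7.62 and 7.14 in MPTP cortex, against 7.79, 7.85 and 7.88 in saline cortex. All MPTP values lay below all saline values (3.12% of all genes), with a difference of -0.40 (SE 0.15, adjusted p = 0.688). The other 8 differences ran from -0.10 (Cnp) to 0.17 (Ugt8a), and their groups overlapped (all MPTP values lay above all saline values in 10.2% of all genes). The median over the 9 genes was -0.01, against 0.04 over all genes.

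Averaged over the 3 regions, Cldn11, Ugt8a and Tspan2 rose (6.61% of all genes did) and Opalin fell (2.43%), against 9.04% of all genes that changed either way. Taken singly, the rises were called in striatum alone (0.88, 0.76 and 0.56) and the fall in midbrain alone (-0.74). The mean differences were 0.46 (SE 0.07, adjusted p = 0.000259) for Cldn11, 0.39 (SE 0.06, adjusted p = 0.000241) for Ugt8a, 0.26 (SE 0.05, adjusted p = 0.00203) for Tspan2 and -0.45 (SE 0.08, adjusted p = 0.00173) for Opalin. Mbp, at 0.12 (SE 0.04), had an adjusted p = 0.054. It was called over all probe sets, with the filter at the 75th percentile, with centring on the array median, and without saline midbrain replicate 1, MPTP striatum replicate 2, or replicate 3 of MPTP or of saline frontal cortex. In the same mean microglia markers rose in 7 of 10 genes, astrocyte markers in 4 of 10 and endothelial markers in 3 of 8, and their part in the values of the myelin genes was not tested. Opalin was the 1 member whose difference was negative in all 3 regions, and its call in the mean was lost when its dim second probe set was averaged in.

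Whether the response differed between regions was tested as the difference of the 3 MPTP minus saline differences. No myelin gene passed that test by limma in any of the 3 pairs of regions. For striatum minus cortex 0.0596% of all genes passed, all 9 myelin genes had positive differences with a median of 0.42 (-0.07 over all genes), and 7 of them had an unadjusted p under 0.05 (7.75% of all genes). The largest was Cldn11 at 0.80 (95% interval 0.46 to 1.13, adjusted p = 0.0712), followed by Ugt8a at 0.59 (0.31 to 0.86, adjusted p = 0.142). For midbrain minus striatum 0.0681% of all genes passed, all 9 differences were negative with a median of -0.43 (0.06 over all genes), and 6 had an unadjusted p under 0.05 (5.89% of all genes). Here Opalin stood at -0.53 (-0.95 to -0.10), Ugt8a at -0.51 (-0.79 to -0.23), Cldn11 at -0.48 (-0.82 to -0.14) and Mbp, the smallest, at -0.06 (-0.25 to 0.12). For midbrain minus cortex no gene of the 11741 passed (0%), the median was 0.08, and only Mbp (0.25) had an unadjusted p under 0.05. The first 2 sets of differences share the striatal arrays. Without MPTP frontal cortex replicate 1, Cldn11 and Cnp passed for striatum minus cortex, and without saline frontal cortex replicate 2 Cldn11 did.

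The regions were then compared within the MPTP animals, a comparison added after the data had been seen. All 9 genes were higher in MPTP midbrain than in MPTP cortex (29.3% of all genes were) with a median of 2.02, and in MPTP striatum than in MPTP cortex (18.8%) with a median of 1.76. Between MPTP midbrain and MPTP striatum, 5 of 9 were higher (37.7% of all genes), namely Mog (0.63), Ugt8a (0.35), Tspan2 (0.30), Mag (0.28) and Mobp (0.25). The 4 others were not called, Mbp at 0.12 (-0.01 to 0.25), Opalin at 0.05 (-0.25 to 0.35), Cldn11 at 0.02 (-0.22 to 0.25) and Cnp at -0.05 (-0.20 to 0.11). The call of Mobp was lost without MPTP striatum replicate 2 or 3 or any 1 MPTP midbrain array, and that of Mag without MPTP striatum replicate 1. The median step between midbrain and striatum was 0.25 in MPTP animals and 0.58 in saline animals.

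The 8 probe sets of Mbp did not follow 1 pattern. 6 of its 8 probe sets read between the 98.9th and the 99.99th percentile of their array, and all 6 were higher in saline midbrain than in saline cortex, by 0.65 to 1.59. The probe set 1425264_s_at ran the other way. It read 7.26, 7.26 and 7.37 in MPTP midbrain and 7.41, 7.50 and 7.48 in saline midbrain, 8.72, 8.63 and 8.69 in MPTP striatum and 8.70, 8.67 and 8.68 in saline striatum, and 8.43, 8.38 and 8.42 in MPTP cortex and 8.47, 8.13 and 8.60 in saline cortex. Midbrain was thus its lowest region, by -0.94 (SE 0.09, adjusted p = 6.89e-09 over all probe sets) against saline cortex and by -1.22 (SE 0.09, adjusted p = 5.16e-11) against saline striatum. The probe set 1425263_a_at was highest in striatum, with 8.46, 9.01 and 8.84 in MPTP striatum and 8.35, 8.38 and 8.76 in saline striatum. It read 7.71 to 8.25 in MPTP midbrain and 7.97 to 8.29 in saline midbrain. In MPTP minus saline, the 8 sets gave -0.01 to 0.27 in striatum, with 1 called, and -0.23 to 0.18 in midbrain, with none called. Which transcripts of the gene each set detects is not given in the sources used here.

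**Figure D4:**
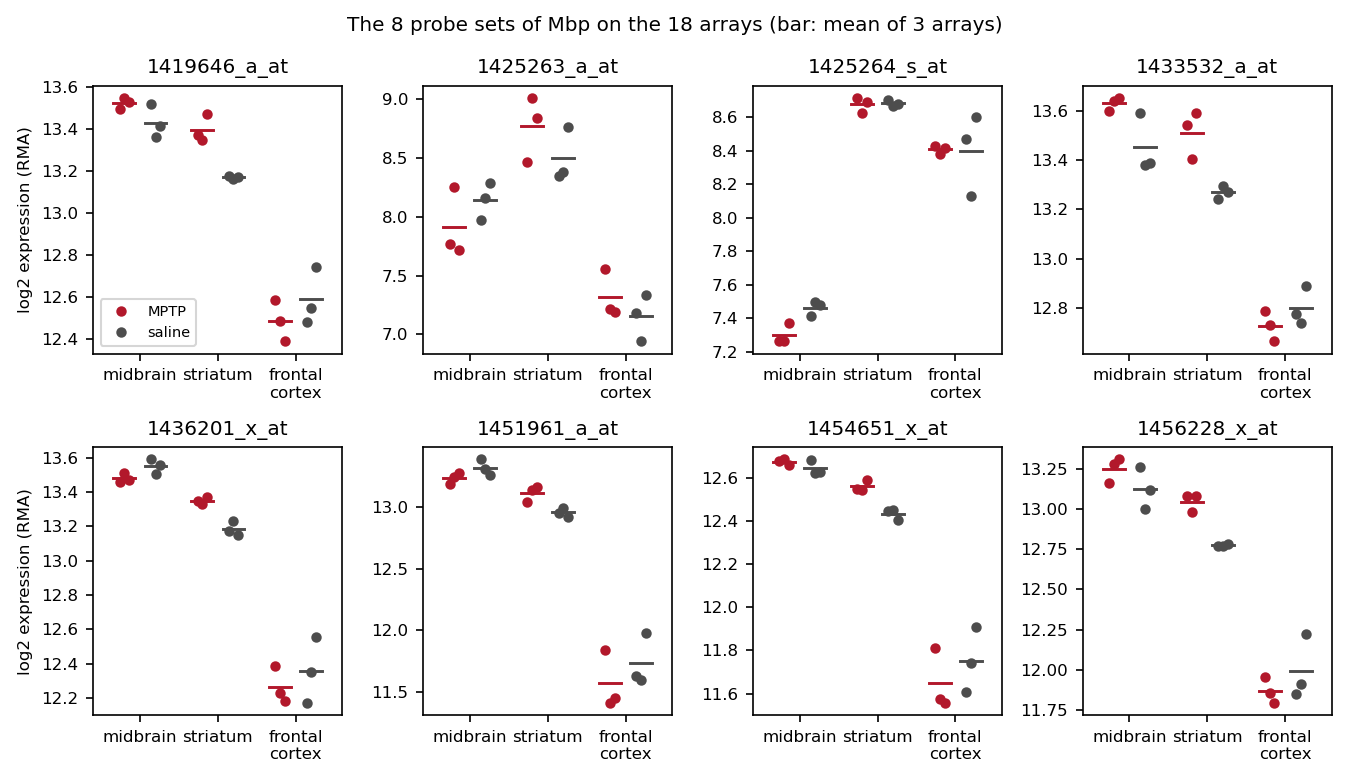
Log2 expression (RMA, vertical axes, each with its own range) of the 8 probe sets annotated to Mbp in midbrain, striatum and frontal cortex, 3 MPTP arrays in red and 3 saline arrays in grey, with a bar at each mean. 6 sets are highest in midbrain, 1425263_a_at is highest in striatum, and 1425264_s_at is lowest in midbrain.

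Probe sets of a gene did not always share the sign of the MPTP difference. In midbrain 11 of the 25 tested sets had a positive and 14 a negative difference (median -0.01, 56.1% positive over all tested probe sets), with Cldn11 called higher (3.45% of all probe sets were) and Opalin called lower (0.625%). The sets of Mbp split into 4 positive and 4 negative there, those of Ugt8a gave 0.25 and -0.08, those of Tspan2 0.13, 0.02 and -0.19, and 2 of the 5 of Mobp were positive. In frontal cortex 12 sets had a positive and 13 a negative difference (62.6% positive over all tested probe sets). Among the positive ones, the Mobp set 1441308_at (0.03) lay below the filter value on every cortical array. The 3 sets of Cnp gave 0.31 to 0.35 in MPTP striatum, and in midbrain -0.01, -0.07 and -0.33 (adjusted p = 0.0623 for the last). In each of the 25 sets the response in midbrain was below that in striatum (in 37.7% of all tested probe sets it was), and none of these differences was called.

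Genes of myelin outside the 9 were examined next. Of 31 further genes of myelin and mature oligodendrocytes, 29 were higher and 2 lower in saline striatum than in saline cortex. In saline midbrain 30 were higher than in saline cortex and none lower. Of all tested genes, 20.5% were higher in the first comparison and 27.8% in the second. In MPTP striatum 4 of the 31 rose and none fell, with a median of 0.04 (1.29% of all tested genes rose and 0.809% fell). The secreted protease gene Adamts4 read 7.74, 7.74 and 7.60 in MPTP striatum, against 6.99, 7.13 and 7.15 in saline striatum (difference 0.60, SE 0.10, adjusted p = 0.00265). Edil3 rose by 0.55, Apod, which encodes a lipid carrier, by 0.50 and the lysophosphatidic acid receptor gene Lpar1 by 0.40. Each of these last 3 lost its call without MPTP replicate 1 and without saline replicate 1 or 2, among other arrays. In MPTP midbrain 1 of the 31 rose (Edil3, 0.49), against 2.15% of all genes. 2 fell (Ppp1r14a, -0.51, and Adamts4, -0.45), against 0.383% of all genes, and the median was -0.10. Each of the 3 calls was lost without MPTP midbrain replicate 1 or 3, among other arrays. Averaged over the 3 regions, 2 of the 31 rose (Edil3 and Apod) and 3 fell, Septin4 and Aspa among them. Of all tested genes 6.61% rose in that mean and 2.43% fell.

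Of 13 genes of myelin sphingolipid metabolism, the pathway of Ugt8a (Fa2h and Gal3st1 belong to the preceding list too), 3 rose in MPTP striatum and none fell. Of all tested genes 1.29% rose there and 0.809% fell. Elovl7, a fatty acid elongase gene, rose by 0.47 (SE 0.10, adjusted p = 0.0134), and Cers2 and Degs1, whose products make ceramide, each rose by 0.34. Cers2 read 8.41, 8.39 and 8.45 in MPTP striatum, against 8.10, 8.02 and 8.13 in saline striatum, and it was the 1 gene of the 13 that rose in MPTP midbrain too (0.35, adjusted p = 0.018). Elovl7 lost its striatal call without saline replicate 2 or MPTP replicate 2. Both calls of Cers2 were lost without 1 of several arrays, MPTP replicates 1 and 3 of either region among them, and that of Degs1 without any 1 of the 6 striatal arrays. Of 9 lineage factors, Olig1, a transcription factor gene of the oligodendrocyte lineage, rose in MPTP striatum (0.43, SE 0.08, adjusted p = 0.00529), and it kept that call in all 16 alternatives. Averaged over the 3 regions Olig1, Olig2 and Myrf rose (0.24, 0.33 and 0.19) and none of the 9 fell (6.61% of all genes rose and 2.43% fell). Of 10 genes of precursors and newly formed oligodendrocytes, Ptprz1 rose in MPTP striatum (0.40, adjusted p = 0.0339, not without MPTP replicate 1 or 3 or any 1 saline array). In the mean over the 3 regions Ptprz1, Tnr and Pdgfra of these 10 rose (0.26, 0.25 and 0.18) and none fell, against the same 6.61% and 2.43% of all genes.

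Of 12 node and paranode genes, which organize the axon at the gaps between myelin segments, Nfasc rose in MPTP striatum and Cntnap1 fell. Of all tested genes 1.29% rose there and 0.809% fell. Nfasc read 10.41, 10.43 and 10.45 in MPTP striatum, against 9.35, 9.57 and 9.73 in saline striatum (difference 0.88, SE 0.10, adjusted p = 8.37e-06). Its 2 other tested probe sets gave 0.45 and 0.08, neither called. Cntnap1 fell by 0.64 (SE 0.15, adjusted p = 0.0241), with 2 of its 3 MPTP values under the filter value, and lost that call without saline replicate 1 or 3 or MPTP replicate 1 or 2. Of 7 genes for receptors and partners of Mag and other myelin inhibitors, Tnfrsf19 rose (0.31, adjusted p = 0.0429), a call lost without any 1 saline array or MPTP replicate 1 or 2. Of 3 tested genes of peripheral, Schwann cell myelin none was called by limma in striatum or midbrain (1 had an unadjusted p under 0.05 in striatum and 0 in midbrain), and 2 of the 5 on the array did not pass the filter.

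Genes with the most similar pattern were sought by the root mean square difference between a gene's 6 group means, centred on their own mean, and the mean centred profile of the 9 myelin genes. That profile stood at -1.11 in MPTP and -1.09 in saline cortex, 0.54 and 0.16 in striatum, and 0.76 and 0.73 in midbrain. Its largest steps lay between cortex and the other regions, so closeness to it reflects region more than treatment. Over the 6 means the closest non-members were Lpar1 (0.08), Myrf, the myelin regulatory transcription factor gene (0.08), Mal (0.09), Sox2ot (0.10), Erbb3 (0.10), St18 (0.12), Slc44a1 (0.12) and Bcas1 (0.13). Of the members, Tspan2 lay closest to the mean profile at 0.09 and Mbp farthest at 0.46. Each member is part of that mean, so these distances are not directly comparable with those of non-members. In MPTP striatum only Lpar1 of these 8 was called, Myrf stood at 0.33 (adjusted p = 0.0507) and Bcas1 at 0.02 (adjusted p = 0.953).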

How the data were processed

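RNA of 3 brain regions from MPTP and saline mice was hybridized to 18 Affymetrix arrays. The deposited log2 values were made by the authors with RMA (background correction, quantile normalization and summary per probe set), per the submitters' processing notes, with no version given. The titles call the 3 arrays of a group biological replicates. No 2 arrays held identical values, and the number of arrays limits the precision.

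Of 45101 probe sets, 34958 carried 1 gene, 932 several and 9211 none in the platform annotation. Symbols were updated by Entrez ID for 34754 and kept for 204. Each gene was represented by its probe set with the highest mean. Genes whose mean reached the median of all values (5.18) in at least 1 region were tested, 11741 of 18194.

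A model over all genes with the 6 groups was fitted in limma 3.58.1 (R 4.3.3) with an intensity trend (12 residual degrees of freedom, 23.2 after moderation). Contrasts compared treatments within regions, regions within treatments and the responses between regions. P-values are two-sided and Benjamini-Hochberg adjusted within each contrast, and a gene was called under 0.05. For the mean over regions the replicate number within a treatment was a random block (correlation 0.00558), on the assumption, which the labels do not state, that a number marks 1 animal across regions. The same model was fitted to all 23992 probe sets that passed the filter. The fit was tested on simulated data.

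The members and gene lists were chosen with earlier results of these data known. The text names all 9 members and, of each other list, up to 4 called genes by smallest p per treatment contrast, the 8 tested genes closest in profile, and Th, Slc6a3 and Slc18a2 as a check of treatment. Markers of each region served as a check of tissue, and further genes named as not called came from those lists.

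Replicate numbers are shared between groups. Deviations from the group means of same-numbered arrays correlated at -0.233 to 0.342 between regions (11 of 18 pairs over 0.1) and at -0.194 to 0.294 between treatments (3 of 9 over 0.1). All 3 pairs passed 0.1 only for saline midbrain with saline cortex and for MPTP midbrain with MPTP striatum, where the replicate block left the counts at 9 and 5. Saline striatum replicates 1 and 2 correlated at -0.133 and -0.202 with cortex and at -0.164 and -0.233 with midbrain of the same number. With the other number of these 2 they reached 0.300 and 0.142 with cortex and 0.252 and 0.187 with midbrain. Saline striatum replicate 3 gave 0.141 and 0.061 with its own number. Whether a number marks 1 animal was not settled. Alternatives varied the filter, normalization, probe set choice, model and arrays included. Promoters were read from RefSeq on GRCm38.p6 with Python 3.11.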

Additional observations from a re-analysis of the deposited data

Results flagged for a closer look

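The response to MPTP differed between regions by limma for 2 genes outside the 9. Adamts4, a secreted protease gene, responded by -0.45 in midbrain and by 0.60 in striatum, a difference of -1.05 (SE 0.14, adjusted p = 0.000579). This call was kept in all 23 alternatives, and the second probe set of Adamts4 gave -0.90 (adjusted p = 0.0798 over all probe sets).

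Nfasc, an adhesion gene of nodes and paranodes, responded more in striatum than in frontal cortex by 0.74 (SE 0.14, adjusted p = 0.0347), a call lost in 13 of 23 alternatives, among them those without any 1 MPTP striatal array. Between midbrain and striatum its response differed by -0.89 (SE 0.14, adjusted p = 0.00189), a call lost in 1 of 23 alternatives, the mean over its probe sets. Its 2 other tested probe sets gave -0.65 and -0.19 for that difference, neither called. No group of 3 arrays is large enough for a test of single outlying arrays, and none was made.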

How the results depend on the processing

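The 61 called results of the 9 genes were recomputed under 1024 alternatives, of which 983 kept the call, 41 lost it and none turned the sign; of the 56 results not called, 47 of 1145 alternatives turned the sign and 32 gained a call. The 1 of these 47 that was called was Mbp in MPTP midbrain minus MPTP striatum, at -0.18 as the mean over its 8 probe sets against 0.12. Slc44a1, one of the 8 genes of similar profile, turned to -0.14 there in the same setting. In striatum 4 to 6 of the 9 genes were called under the other settings (5 with the replicate block) and 3 to 5 when 1 array was left out. In midbrain, against 1 call, 2 were made with the filter at the 75th percentile, with every probe set as a feature, with only the arrays compared, with the replicate block and with each array's interquartile range added as a covariate, 0 with the mean over probe sets, and 0 to 3 when 1 array was left out. For the response in striatum minus that in cortex, against 0 calls, 3 were made after a second quantile normalization, 1 with the replicate block, 2 with the number within a treatment as a fixed replicate block (taken to mark an animal), 3 with the interquartile range as a covariate, and 0 to 2 when 1 array was left out. For midbrain minus striatum, against 0 calls, 2 were made after a second quantile normalization and 1 with the covariate, and none in the other settings. MPTP midbrain exceeded MPTP striatum in 3 genes after a second quantile normalization, against 5, and in 4 with any 1 array left out. The replicate block moved no other count of the 9 genes by over 1.5 times. The covariate, the fixed block and the pairs of regions within MPTP animals were chosen after seeing the data. With 3 arrays a group, differences of the size found for Mbp and Cnp lie close to the threshold. The causes of these changes were not tested.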
